A study of Mus musculus with 1094 samples.

Results

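Basal progenitors are the intermediate cells of the embryonic cortex, which leave the ventricular surface after radial glia divide and divide again to give pairs of neurons. They are marked by Eomes (also called Tbr2), a T-box transcription factor that is switched on as a cell leaves the stem cell state and switched off as its daughters mature into neurons. The cells described here are those labelled basal progenitors (BP) at E16.5 (days of embryonic development), when the mouse cortex makes its upper layer neurons. All deposited BP columns of that stage were taken that had at least 1000 genes at 1 TPM (transcripts scaled by gene length to a fixed total per cell) or more, which gave 79 of 89 cells out of 1094 cells in the series. The highest of the 10 cells left out had 965 and 880 genes, and the lowest cell kept had 2365.

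The E16.5 BP cells came from dissected dorsal cortex of wild-type C57Bl/6 embryos that carried a Tbr2::GFP reporter, were sorted for green fluorescence and were captured singly on a microfluidic array. They were set against 45 BP cells at E14.5 and 61 BP cells at E18.5 of the same reporter line, and against 63 cells labelled newborn neurons (NBN) at E16.5, which were also sorted from Tbr2::GFP embryos. BP cells at E12.5 (72 cells) and P0 (75 cells) give the wider course. The fluorescent protein can outlast the Eomes transcript, so the sort by itself does not separate progenitors from their recent daughters. Labels name no animals, and each library (all cells of 1 population at 1 stage) is 1 sample, so a difference between stages has no replicate check and cannot be told apart from a difference between captures or embryos. E16.5 BP cells held a median of 4608 genes at 1 TPM, fewer than BP cells at E14.5 (5500) and E18.5 (4936) and than E16.5 NBN (5764). The mitochondrial share of TPM had a median of 8.52% at E16.5, against 6.44% at E14.5 and 7.41% at E18.5. TPM keep no read depth, so the depth of a cell is unknown.

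The transcripts of the sex chromosomes did not match the labels, which call every cell female. At a level of 10 TPM or more, 24 of the 79 E16.5 BP cells held Xist and no Y-linked transcript (Ddx3y, Eif2s3y, Kdm5d or Uty), 28 held a Y-linked transcript and no Xist, 7 held both and 20 neither. At E14.5, 37 of 45 BP cells held a Y-linked transcript and 0 held Xist. At E18.5, 48 of 61 held Xist and 0 a Y-linked transcript. The E16.5 cells thus hold both patterns, the E14.5 cells 1 of them and the E18.5 cells the other, so stage and the sex or identity of the embryos cannot be told apart over whole libraries. For some of the genes below, values are also given within cells of matching pattern (28 E16.5 cells and 37 E14.5 cells with a Y-linked transcript only, or 24 E16.5 cells and 48 E18.5 cells with Xist only), a choice made after the data were seen.

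The E16.5 BP library also came in 2 runs of cell numbers, found after the data were seen, and the labels do not say what the numbers mean. Between cells 28 and 29, 33 of 6866 genes stepped, so that cells of 1 side stood above those of the other in 85% of pairs or more. No boundary in the other 4 BP libraries or in E16.5 NBN gave more than 4 such genes. Prickle2, a planar polarity gene, had a median of 4.48 TPM in the 27 kept cells numbered 1 to 28 and 0.568 TPM in the 52 numbered 29 to 89, and Tcf7l1, a relative of the Wnt factor Tcf7l2, 5.91 and 0.946 TPM. Of cells 1 to 28, 17 held Xist only and 1 a Y-linked transcript only, and of cells 29 to 89, 7 and 27. The run of numbers and the sex pattern therefore overlap in large part at E16.5, but not in every cell. Prickle2 was at 1.9661 TPM or more in all kept cells 1 to 28. It was at 1.9987 TPM or less in all kept cells 29 to 89, with the 7 that held Xist only among them. For most genes the run and the sex pattern were not separated. The median number of genes per cell was 5048 in cells 1 to 28 and 4207.5 in cells 29 to 89. Many of the results below are also given for each run.

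Eomes was present in most but not all E16.5 BP cells, and most cells also held Neurod6, a gene of cortical neurons. Eomes (chromosome 9, 118478212 to 118486132, GRCm38) lay between 0 and 2065 TPM per cell with a median of 20.3. It reached 10 TPM in 48 of 79 cells (60.8%, exact 95% interval 49.1 to 71.6, counting error only) and 100 TPM in 32. In cells 1 to 28 it reached 10 TPM in 20 of 27 and in cells 29 to 89 in 28 of 52. The cells therefore covered the whole range, with 15 under 1 TPM. Neurod6 (chromosome 6, 55677822 to 55681263), a basic helix-loop-helix factor of cortical projection neurons, had a median of 802 TPM and a range of 0 to 5564, and reached 10 TPM in 71 cells. Both genes were at 10 TPM or more in 42 cells, Neurod6 without Eomes in 29, Eomes without Neurod6 in 6 and neither in 2. Most cells with Eomes thus held Neurod6 as well, and most cells without Eomes held Neurod6.

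The other marker genes split the E16.5 BP cells further. Rnd2 (chromosome 11, 101464999 to 101471853), a small GTPase that drives the migration of newborn neurons, was uneven: its quartiles were 0 and 476 TPM, its median 4.23, and 38 cells reached 10 TPM. Unc5d (chromosome 8, 28646717 to 29219636), a netrin receptor of multipolar cells below the cortical plate, had a median of 8.62 TPM, a maximum of 864 and 39 cells at 10 TPM or more. Its mean was 25.1 TPM in cells 1 to 28 and 102 TPM in cells 29 to 89, and that of Rnd2 309 and 612 TPM. Rnd2 and Unc5d were both at that level in 23 cells. All 4 markers were at 10 TPM or more in 9 cells, 3 of them in 32, 2 in 28, 1 in 8 and none in 2. Over the 79 cells Spearman's rho between Eomes and Rnd2 was −0.08, between Eomes and Unc5d −0.18, between Eomes and Neurod6 −0.31 and between Rnd2 and Unc5d 0.25, given as a description of cells of 1 library.

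**Figure D1:**
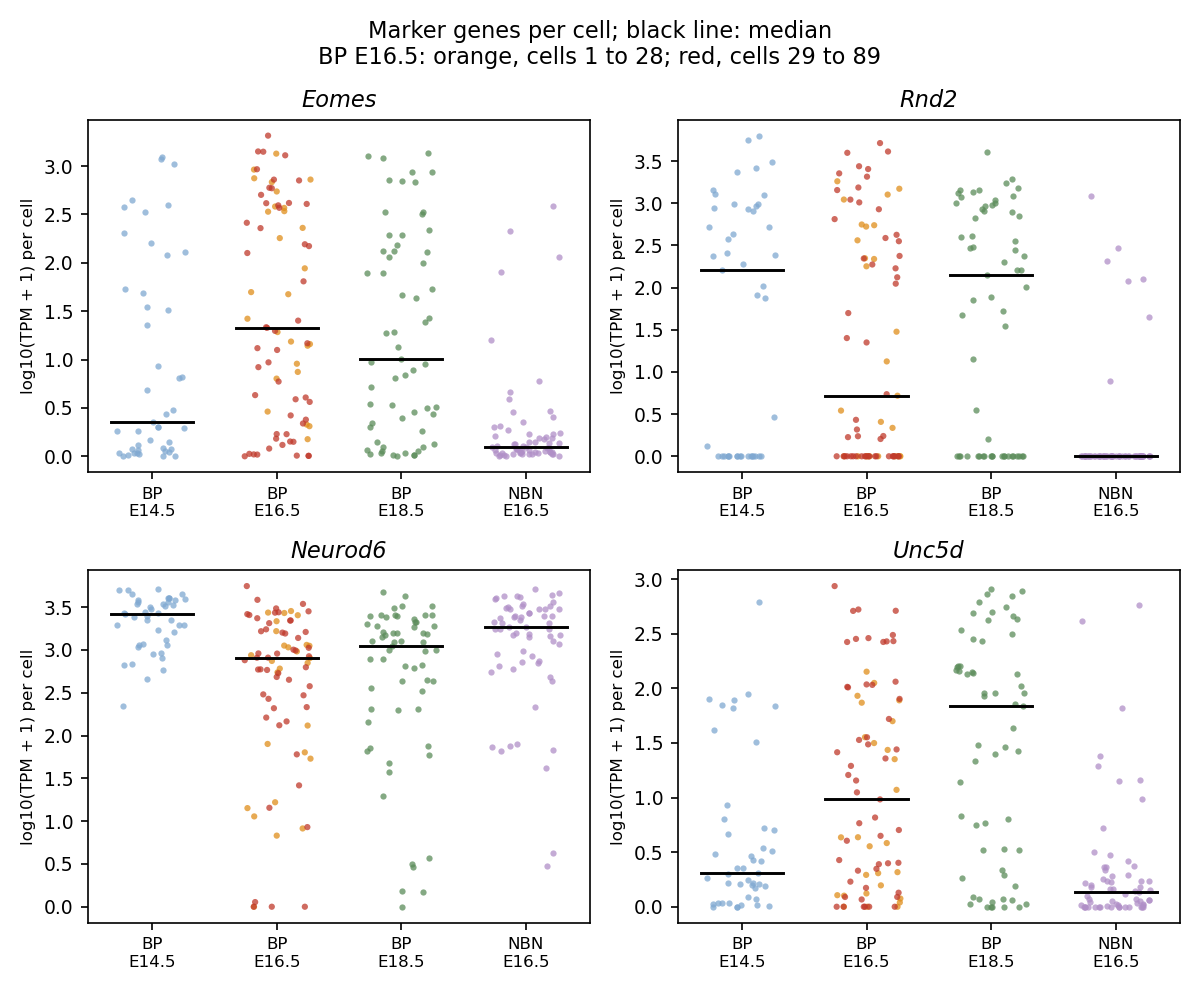
Level of the 4 marker genes in single cells, as log10(TPM + 1) on the vertical axis, for the BP libraries at E14.5, E16.5 and E18.5 and for E16.5 NBN; each point is a cell, orange for E16.5 BP cells 1 to 28 and red for 29 to 89, and the black line the median. Eomes reaches 10 TPM (about 1.04 on this axis) in 48 of 79 E16.5 BP cells and 5 of 63 E16.5 NBN cells, Unc5d in 39 and 7, and Neurod6 in 71 and 61.

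Eomes, Rnd2 and Unc5d were higher in the E16.5 BP cells than in NBN of the same stage, and Neurod6 was not. Mean Eomes was 259 TPM in BP cells and 13.3 TPM in NBN, and 48 of 79 BP cells against 5 of 63 NBN cells reached 10 TPM. For Rnd2 the means were 508 TPM in BP cells and 32.2 TPM in NBN, and for Unc5d 75.6 and 18.3 TPM. In BP cells 1 to 28 alone Unc5d, at 25.1 TPM, was near the NBN mean. Neurod6 averaged 1095 TPM in BP cells and 1963 TPM in NBN. Along the BP stages E14.5, E16.5 and E18.5 the mean of Eomes was 129.8, 259 and 172 TPM, and 16 of 45, 48 of 79 and 30 of 61 cells reached 10 TPM. Neurod6 was at 2558, 1095 and 1261 TPM over the same stages. The E14.5 library thus held the fewest cells with Eomes and the highest Neurod6 of these stages, and its lowest cell had 221 TPM of Neurod6.

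Eomes was set against neuronal genes within the E16.5 BP cells. Of the genes in this paragraph Tuba1a, Myt1l and Nrp1 were chosen for low correlations with Eomes, so their order along Eomes follows from that choice. The mean log2(TPM + 1) of 16 newborn neuron genes had a Spearman correlation of −0.48 with Eomes, −0.49 in cells 1 to 28 and −0.59 in cells 29 to 89. Neurod1, a basic helix-loop-helix factor of basal progenitors and young neurons, had medians of 82.9, 42.1 and 80.1 TPM from the highest Eomes range to the lowest. Tuba1a (chromosome 15, 98949837 to 98953703), the alpha-tubulin of growing neurons, had a median of 7234 TPM in the 32 cells with Eomes at 100 TPM or more, 8674 TPM in the 16 cells between 10 and 100 TPM, and 17579 TPM in the 31 cells under 10 TPM. Myt1l (chromosome 12, 29528384 to 29923213), a zinc finger factor that holds non-neuronal genes down in neurons, had medians of 0.786, 39.2 and 139 TPM in those ranges. Nrp1, a semaphorin receptor of migrating neurons and axons, had medians of 4.54, 84.5 and 251 TPM. The ranges overlapped: 13 of the 32 Eomes-high cells held Nrp1 at 10 TPM or more, against 29 of the 31 Eomes-low cells. The median number of genes per cell was 4390 in the Eomes-high range, 4506.5 in the middle one and 4949 in the low one. Its part in these differences was not tested.

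Among 6866 genes found at 1 TPM in 25% or more of the cells, the lowest Spearman correlations with Eomes over the 79 cells, chosen after their values were seen, were those of Slc7a11 (−0.61), Tuba1a (−0.61), Tuba1c (−0.60), Tuba1b (−0.54) and Myt1l (−0.49). Tuba1a correlated with Tuba1c at 0.99 and with Slc7a11, a cystine transporter gene, at 0.97. Tuba1a, Tuba1b and Tuba1c are near-identical copies, so their separate levels are uncertain, and whether reads were shared with Slc7a11 was not tested. Further genes at the low end were Cntn2 (−0.42), an adhesion molecule of early axons, and Nrp1 (−0.42). In cells 1 to 28 and 29 to 89 the correlation was −0.41 and −0.63 for Tuba1a, −0.57 and −0.46 for Myt1l and −0.36 and −0.52 for Nrp1. For Tuba1a the correlation in the BP libraries at E12.5, E14.5, E18.5 and P0 was −0.69, −0.49, −0.09 and −0.33, and for Myt1l −0.43, −0.50, −0.08 and −0.27. Both were negative in all 4, and near 0 at E18.5.

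Nrp1, chosen here for its value at E16.5, did not have that sign in all libraries. Its correlation with Eomes was 0.32 at E12.5, 0.41 at E14.5, −0.42 at E16.5, −0.48 at E18.5 and −0.38 at P0. At E14.5 Nrp1 had a median of 155.4 TPM in the 16 cells with Eomes at 10 TPM or more and 0.599 TPM in the 29 other cells. At E16.5 the same medians were 16.9 TPM in 48 cells and 251 TPM in 31. The correlation was thus positive up to E14.5 and negative from E16.5 on, in 5 libraries and with no test of the change.

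**Figure D2:**
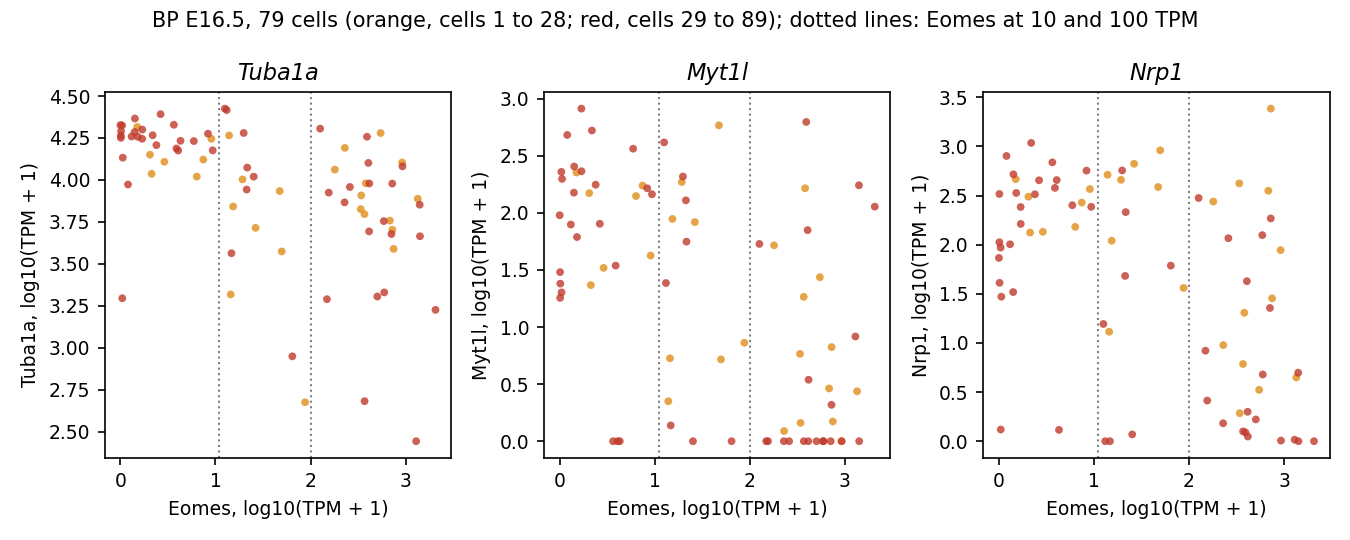
Tuba1a, Myt1l and Nrp1 (vertical axes) against Eomes (horizontal axis) in the 79 E16.5 BP cells, all as log10(TPM + 1); each point is a cell, orange for cells 1 to 28 and red for 29 to 89, and the dotted lines mark Eomes at 10 and 100 TPM. Cells to the right, with Eomes at 100 TPM or more, sit lower for all 3 genes, with a median Myt1l of 0.786 TPM against 139 TPM in cells under 10 TPM of Eomes; the genes were chosen for this relation.

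At the other end, the genes most like Eomes over the 79 cells were Pam (0.44), an enzyme that amidates peptide hormones, Tnfaip6 (0.40), Dbi (0.39), an acyl-CoA binding protein, Mrpl51 (0.38), Lrrn3 (0.38), Cd164 (0.37), Heg1 (0.37), Nedd4 (0.37), a ubiquitin ligase, Neurog2 (0.36) and Slfn2 (0.36). Neurog2, the proneural factor that commits cortical progenitors to the glutamatergic neuron fate, was at 10 TPM or more in 13 of 32, 2 of 16 and 3 of 31 cells from the highest Eomes range to the lowest. Its correlation with Eomes was 0.39, 0.28, 0.19 and 0.35 in the BP libraries at E12.5, E14.5, E18.5 and P0. Btg2, an antiproliferative gene of progenitors about to make neurons, had a median of 263 TPM in the highest range and 0.448 TPM in the middle one, against 11.497 TPM in the lowest, and reached 10 TPM in 22, 7 and 16 cells of the ranges. Of the genes most like Unc5d, Mllt3 (0.49) and Pdzrn3 (0.49) led, and of those most like Neurod6, Aff3 (0.53) and Scd2 (0.44) led. In the BP libraries at E12.5, E14.5, E18.5 and P0 Mllt3 followed Unc5d at 0.10, 0.08, 0.26 and 0.20, and Aff3 followed Neurod6 at 0.24, 0.22, 0.22 and 0.03. These genes were chosen as the highest at E16.5, so lower values elsewhere follow in part from that choice.

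The share of E16.5 BP cells with transcripts of dividing cells did not exceed that of sorted newborn neurons. A cell was counted in a G2/M profile when 5 or more of 19 G2/M genes reached 10 TPM, and in a G1/S profile by the same rule on 19 replication genes. Of the 79 cells, 6 had the G2/M profile (7.59%, exact 95% interval 2.84 to 15.8), 18 the G1/S profile (22.8%) and 22 either. Another 7 cells held 4 G2/M genes, and 3 of the 6 held exactly 5. At E14.5 the G2/M, G1/S and combined counts were 9, 25 and 30 of 45 BP cells, and at E18.5 6, 20 and 23 of 61. Newborn neurons, which should have left the cycle, gave 7, 31 and 31 of 63 at E16.5. A count at this level is therefore not by itself a measure of cycling. Of the 7 NBN cells with the G2/M profile, 3 held Eomes at 10 TPM or more. The NBN cells also held more genes, with a median of 5764 against 4608 in the E16.5 BP cells. Whether some NBN cells were cycling was not tested.

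A pair of E16.5 BP cells held more G2/M genes than any E16.5 NBN cell, of which the highest held 10. One held all 19 G2/M genes at 10 TPM or more, with Mki67, the proliferation antigen gene, at 794 TPM and Top2a, the mitotic topoisomerase gene, at 983 TPM. It also held Eomes at 227 TPM, Neurod6 at 592 TPM and Rnd2 at 1105 TPM. The other held 11 G2/M genes, with Eomes at 683 TPM, Neurod6 at 742 TPM and Mki67 at 260.4 TPM. Cells with 8 or more G2/M genes numbered 13 of 72 at E12.5, 1 of 45 at E14.5, 2 of 79 at E16.5, 2 of 61 at E18.5 and 4 of 75 at P0, and 4 of 63 E16.5 NBN cells also reached it. Both E16.5 cells carried neuronal transcripts along with mitotic ones, and whether either capture held more than 1 cell was not tested.

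Transcripts of some radial glial genes were low and those of others were not. Of 16 radial glial genes a median of 3 reached 10 TPM in a cell, as at E14.5 and E18.5, and 2 were at 0 in all cells. Vim, an intermediate filament gene, averaged 67.1 TPM, Slc1a3, a glutamate transporter gene, 75.8 TPM and Fabp7, a fatty acid binding protein gene, 223 TPM. Of the 7 with a mean of 10 TPM or more at E16.5 or E14.5, 1 was higher at E16.5 by 4 times or more and 0 lower, with a median difference of 1.13 log2 units, beside 6.21% higher and 5.4% lower of all 9293 genes at that mean. Of 9 set against E18.5, 2 were higher and 1 lower, beside 6.2% and 5.89% of 9439 genes. Hes1 and Hes5, targets of Notch that keep radial glia undifferentiated, averaged 0 and 0 TPM over the 79 cells, and Nes, the radial glial filament gene, 0.0362 TPM. Sox2, a stem cell factor, reached 10 TPM in 3 of 79 cells, against 3 of 45 at E14.5 and 10 of 61 at E18.5. Pax6, which radial glia hand on to early basal progenitors, was at 10 TPM in every E16.5 BP cell and in 61 of 63 NBN cells, so only higher levels separate cells. At 100 TPM or more Pax6 was found in 18 of 79 cells, of which 17 also had Eomes at 10 TPM or more, against 2 of 45 cells at E14.5 and 11 of 61 at E18.5. Pax6 averaged 268 TPM in the 48 cells with Eomes and 39.5 TPM in the 31 others. Of the Notch genes, the ligand gene Dll1 reached 10 TPM in 4 cells, and 0 of the 48 cells with Eomes. At E14.5, 4 of the 16 cells with Eomes held it, and at E18.5 0 of 30, with 4 of the 31 cells without Eomes. Mfng, a glycosyltransferase that tunes Notch ligands, averaged 119 TPM at E16.5, against 55.3 TPM at E14.5 and 33.8 TPM at E18.5, but 30.6 TPM in E16.5 cells 1 to 28 and 164.8 TPM in cells 29 to 89.

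The E16.5 BP library was next set against that of E14.5. The E14.5 library held a smaller share of cells with Eomes and a higher mean of Neurod6. Stage and the mix of progenitors and neurons can therefore not be told apart in this comparison. Each library's mean TPM was put on the log2(mean + 1) scale, which understates changes of low genes, and a difference of 2 log2 units (4 times) was counted among genes with a mean of 10 TPM or more in either library. Against E14.5, 577 of 9293 genes were higher at E16.5 (6.21%) and 502 lower (5.4%). There is 1 library per stage, so these are sizes without a test. Averaged instead as log2(TPM + 1) over cells, 10 genes were higher and 262 lower, 272 in place of 1079, of which 29 were shared. With E16.5 cells 1 to 28 alone 1741 genes were past the fold and with cells 29 to 89 alone 1421, of which 680 and 902 were among the 1079.

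The 10 genes furthest above E14.5 were Xist, Tcf7l2, March1, Pigq, Zbtb20, Egr1, Gmeb2, Tmem47, Bri3 and Erdr1. Xist, the first of them, averaged 32.8 TPM at E16.5 and 0.517 TPM at E14.5, and follows the sex patterns given above. The transcription factor genes Zbtb20 and Tcf7l2 are described further. Zbtb20 (chromosome 16, 42875881 to 43642602), a zinc finger repressor known from hippocampal neurons, upper layers and astroglia, lay between 0.0272 and 2669 TPM at E16.5 with a median of 146, and between 0.00519 and 793 TPM at E14.5 with a median of 0.723. It reached 10 TPM in 71 of 79 cells at E16.5, against 13 of 45 at E14.5, and its mean differed by 3.30 log2 units. At E18.5 and P0 its medians were 412 and 228 TPM, so the E16.5 cells stood with the later BP libraries. E16.5 NBN had a median of 0.563 TPM, near the E14.5 BP cells. Zbtb20 stood high whether or not Eomes was present, with medians of 121 TPM in the 48 cells with Eomes and 201 TPM in the 31 others. Both runs of cells stood above E14.5, with medians of 234 TPM in cells 1 to 28 and 108 TPM in cells 29 to 89. Among cells with a Y-linked transcript only, the means were 320.4 TPM at E16.5 and 27.9 TPM at E14.5.

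Tcf7l2 (chromosome 19, 55741820 to 55933654), a transcription factor that Wnt signals act through, had its highest mean at E16.5 of all 5 BP libraries, while its median and its count at 10 TPM differed between the runs of cells. Its median was 18.9 TPM at E16.5 (range 1.97 to 675), against 3.41 TPM at E14.5 (range 1.18 to 21.7) and 4.74 TPM at E18.5. It reached 10 TPM in 56 of 79 cells at E16.5, 1 of 45 at E14.5, 8 of 61 at E18.5 and 11 of 63 E16.5 NBN cells. Cells 29 to 89 gave 47 of the 56, out of 52 cells, with a median of 20.9 TPM, and cells 1 to 28 gave 9 out of 27 with a median of 4.52 TPM, near the E18.5 median. At 100 TPM or more there were 15 of 79 cells at E16.5, 7 in cells 1 to 28 and 8 in cells 29 to 89, against 0 of 45 at E14.5 and 5 of 61 at E18.5. The means were 94.3 and 64.5 TPM in the runs, both above 3.93 TPM at E14.5 and 37 TPM at E18.5. The mean difference was 3.94 log2 units from E14.5 and 0.99 from E18.5. Within matching patterns the means were 90 TPM at E16.5 and 3.79 TPM at E14.5 in cells with a Y-linked transcript only, and 89.8 TPM at E16.5 and 28.2 TPM at E18.5 in cells with Xist only.

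**Figure D3:**
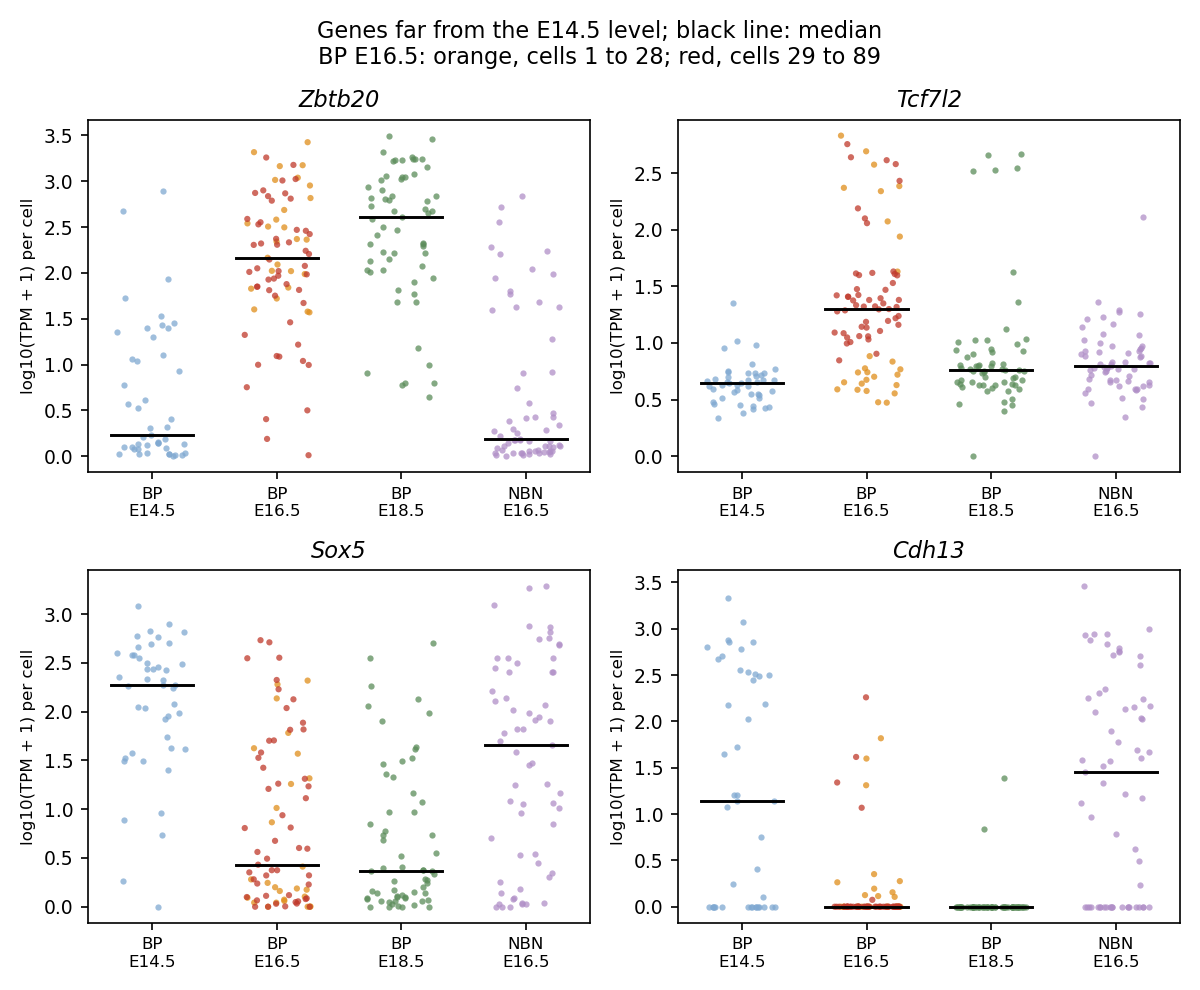
Levels of Zbtb20, Tcf7l2, Sox5 and Cdh13 in single cells, as log10(TPM + 1) on the vertical axis, in BP cells at E14.5, E16.5 and E18.5 and in E16.5 NBN; points are cells, orange for E16.5 BP cells 1 to 28 and red for 29 to 89, and black lines medians of the library. Zbtb20 and Tcf7l2 have medians of 146 and 18.9 TPM at E16.5, against 0.723 and 3.41 TPM at E14.5, with Tcf7l2 at 4.52 TPM in the orange cells and 20.9 TPM in the red ones, while Sox5 and Cdh13 are lower at E16.5 than at E14.5 and present in NBN.

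The 10 genes furthest below E14.5 all had higher means in E16.5 NBN than in E16.5 BP cells. Lrfn5, a synaptic adhesion gene, averaged 0.276 TPM at E16.5 and 92.1 TPM at E14.5, and Ldb2 (chromosome 5, 44472132 to 44799680), a LIM-domain cofactor of deep layer neurons, 0.259 and 86.7 TPM. Cdh13 (chromosome 8, 118283733 to 119324921), an adhesion molecule that lacks the usual cadherin tail, averaged 4.82 TPM at E16.5 and 227 TPM at E14.5, and was at 10 TPM in 7 of 79 cells against 25 of 45. In E16.5 NBN the means of Lrfn5, Ldb2 and Cdh13 were 55.3, 150.1 and 208 TPM, so these transcripts were present in sorted neurons at E16.5 and nearly missing from the BP cells. At E14.5 they sat mainly in cells without Eomes: Cdh13 averaged 40.7 TPM in the 16 cells with Eomes and 330.4 TPM in the 29 others, and Ldb2 9.77 and 129 TPM. In the 31 E16.5 cells without Eomes they averaged 7.09 and 0.457 TPM. In cells with a Y-linked transcript only, Cdh13 averaged 0.702 TPM at E16.5 and 254 TPM at E14.5, and Ldb2 0.543 and 97.8 TPM. Both runs of E16.5 cells were low, Cdh13 at 4.73 TPM in cells 1 to 28 and 4.86 TPM in cells 29 to 89. Others of the 10 lowest were Ndrg1, Plagl1 (a zinc finger factor of growth control), Bcl2 (the survival factor), Plxnd1 (a semaphorin receptor), Kcnt2 (a potassium channel), Prkaa2 (a catalytic subunit of AMP kinase) and Idi1 (an enzyme of sterol synthesis), with differences between −3.40 and −5.62 log2 units. Of the 10 genes only Idi1 had a higher mean in BP cells at E12.5 (142.8 TPM) than at E14.5 (87.5 TPM). Lrfn5, Ldb2, Cdh13 and Ndrg1 averaged 37.3, 3.8, 19 and 0 TPM at E12.5. Ldb2, Cdh13 and Ndrg1 were thus low before E14.5 as well.

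Some deep layer genes were lower than at E14.5. Of 9 deep layer genes tested, 3 were lower past 4 times (Ldb2, Nfe2l3 and Sox5) and 0 higher, against 5.4% lower over all genes, and the median difference was −1.70 log2 units beside −0.02 over all genes. Only 6 of the 9 reached a mean of 10 TPM at E16.5 or E18.5. The others, with Ldb2 among them, entered only through E14.5, so the filter fixed their negative sign. The median includes them. Sox5 (chromosome 6, 143828425 to 144781977), which times the generation of deep layer neurons, had a median of 1.7 TPM at E16.5 and 186 TPM at E14.5 and reached 10 TPM in 29 of 79 cells against 40 of 45. Bcl11b, the Ctip2 factor of subcerebral neurons, averaged 31.9 TPM at E16.5 and 119 TPM at E14.5, and Fezf2, which specifies those neurons, 35.6 and 117 TPM, neither past 4 times. In cells with a Y-linked transcript only, Sox5 averaged 48.5 TPM at E16.5 and 265 TPM at E14.5 and Bcl11b 14 and 118 TPM. Foxp2, a factor of layer 6 neurons, stood apart at 77 TPM at E16.5 and 61.5 TPM at E14.5, with 18.4 TPM in E16.5 cells 1 to 28 and 107 TPM in cells 29 to 89. In cells with Eomes Sox5 averaged 55.3 TPM at E16.5 and 100.4 TPM at E14.5, and in cells without Eomes 31.4 TPM at E16.5 and 341 TPM at E14.5. Of 7 genes of early stem cells tested, 4 were lower past 4 times, beside 5.4% of all genes. Among them was Crabp2, a retinoic acid carrier, at 0.378 TPM at E16.5 and 57.9 TPM at E14.5. Only 4 genes of this list reached a mean of 10 TPM at E16.5 or E18.5. Some of the 7, such as Crabp2, thus entered only through E14.5, and the filter fixed their negative sign.

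For 5 genes of upper layers and migration, chosen after their values were seen, the mean of the whole E16.5 library lay between its neighbours, but for 4 of them cells 1 to 28 did not. Pou3f2 (chromosome 4, 22482780 to 22488366), a POU factor of upper layer neurons also called Brn2, averaged 33.5, 158 and 640.4 TPM at E14.5, E16.5 and E18.5. It reached 10 TPM in 9 of 45, 42 of 79 and 51 of 61 cells. Sema3c (chromosome 5, 17574281 to 17730268), a secreted guidance cue, averaged 11.4, 68.7 and 222 TPM, and Unc5d 26.3, 75.6 and 161 TPM. Cux1 and Cux2, homeodomain factors of upper layers, averaged 26.2, 41.8 and 174 TPM and 34.3, 60.7 and 89.9 TPM. In cells 1 to 28 and 29 to 89 of E16.5 the means were 30.6 and 224 TPM for Pou3f2, 25.1 and 102 TPM for Unc5d, 9.21 and 58.7 TPM for Cux1, and 11.1 and 86.4 TPM for Cux2. Cells 1 to 28 thus stood below the E14.5 means of these 4 genes. Sema3c was alike in both, at 66.3 and 70 TPM. Over the whole list of upper layer genes, 1 of 10 was higher and 1 lower than at E14.5 past 4 times (Pou3f2 and Mef2c), close to the background, and against E18.5 1 of 11 was higher and 2 lower, where 6.2% and 5.89% of all 9439 genes were. Within the E16.5 cells Pou3f2 and Sema3c were not confined to cells with Eomes: Pou3f2 averaged 107 TPM with Eomes and 237 TPM without, and Sema3c 43.8 and 107 TPM. At E18.5 Pou3f2 averaged 765 TPM with Eomes and 520.2 TPM without. In cells with Xist only, Pou3f2 averaged 70.9 TPM at E16.5 and 642 TPM at E18.5. In cells with a Y-linked transcript only it averaged 289 TPM at E16.5 and 27.9 TPM at E14.5.

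**Figure D4:**
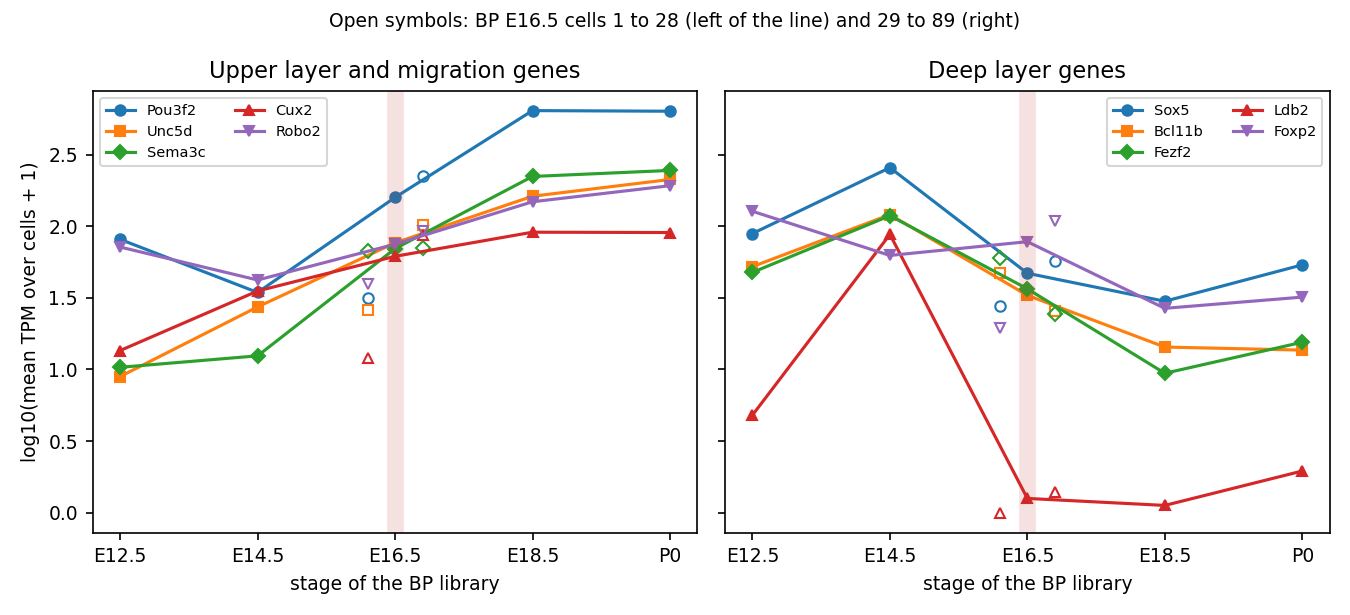
Mean TPM over the cells of each BP library, as log10(mean + 1) on the vertical axis, along the stages E12.5 to P0, for upper layer and migration genes (left) and deep layer genes (right); there is 1 library per stage, E16.5 is shaded, and open symbols beside it give E16.5 cells 1 to 28 (left) and 29 to 89 (right). Pou3f2, Unc5d, Sema3c and Cux2 stand between their E14.5 and E18.5 means at E16.5 in the whole library, Pou3f2, Unc5d and Cux2 in cells 1 to 28 lie under their E14.5 means, and Sox5, Bcl11b, Fezf2 and Ldb2 lie below their E14.5 means.

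Over all genes 6.21% were higher and 5.4% lower than at E14.5 by this measure. Of 16 newborn neuron genes, 0 were past 4 times in either direction, while 14 had negative differences with a median of −0.52 log2 units. Of 13 basal progenitor genes tested, Neurod4 was higher (2.05) and Dll1 lower (−2.13) than at E14.5, with a median of 0.61. That is 1 of 13 in each direction, near the share over all genes. Insm1, a zinc finger factor of basal progenitor divisions, averaged 26.6, 34 and 34.3 TPM over E14.5, E16.5 and E18.5, and Sstr2, a somatostatin receptor, 194, 287 and 292 TPM. Both were lower in E16.5 cells 1 to 28, at 8.89 and 108 TPM, than in cells 29 to 89, at 47.1 and 380.1 TPM. Of the nuclear factor I genes, which time late progenitor programmes, Nfix averaged 449, 975 and 856 TPM, and none of the 3 tested was past 4 times from E14.5. Tcf4, a basic helix-loop-helix partner of proneural factors, averaged 567, 1154 and 1195 TPM. Of 12 synapse genes tested, 0 were past 4 times and 10 had negative differences. Only 10 of that list reached a mean of 10 TPM at E16.5 or E18.5, so some of the 12 entered only through E14.5, which fixed their negative sign. All 13 mitochondrial genes had positive differences, with a median of 0.59 log2 units, and 0 were past 4 times. Of 5 astroglial genes tested 2 were higher than at E14.5 (Mt3 and Ndrg2), and of 6 tested against E18.5 2 were lower (Bcan and Sparcl1), beside 5.89% of all genes lower than at E18.5. In cells with a Y-linked transcript only, the difference of Ndrg2 from E14.5 turned round (−0.40 log2 units). Of 3 choroid plexus genes tested against E14.5 2 were higher (Clic6 and Otx2) and 1 lower (Ttr), and no cell held 3 of the list. Summed over this list, the TPM of an E16.5 cell had an upper quartile of 2.06 and a maximum of 2073.91, so the higher means rested on few cells.

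Against E18.5, 585 of 9439 genes were higher at E16.5 (6.2%) and 556 lower (5.89%), and the median over all genes was −0.12 log2 units. Averaged as log2(TPM + 1) over cells the 1141 genes became 18, of which 3 were shared. The 10 genes furthest above E18.5 were Sertad3, Ift88 (a transport protein of cilia), Brcc3 (a deubiquitinase), Pigp, Kri1, Ddx3y, Clstn2, Lancl1, Zfp738 and Neto2, at 2.63 to 3.66 log2 units. They were at 1 TPM in 25.3% to 58.2% of the E16.5 cells, and Ddx3y is 1 of the Y-linked genes that no E18.5 cell held at 10 TPM. Furthest below were Klf11, Eme2, Rgl2, Mcm7, Spsb3, Wars, Stag1 (a cohesin subunit), Scube1, Brpf1 and Zfp81. In all, 222 genes were higher than in both neighbours (2.22% of 10006) and 163 lower than in both (1.63%), 385 together (3.85%), and none of the 385 was among the 4 genes found with the per-cell average. The genes that also met the rule for named genes were Sertad3, Pigq (a subunit of the enzyme that starts GPI anchors) and Glt8d1 on the high side, and Robo1, Wars, Fgfr3 and Mcm7 on the low side. Glt8d1 was at 1 TPM in 89.9% of E16.5 cells, against 95.6% at E14.5 and 96.7% at E18.5. At E16.5, 1 cell held 28% of its sum. Pigq was at 1 TPM in 41.8% of E16.5 cells, against 46.7% and 41%, and Sertad3 in 34.2%, against 28.9% and 13.1%. With cells 1 to 28 alone 976 genes were past the fold against both neighbours and with cells 29 to 89 alone 616, of which 222 and 302 were among the 385.

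Mcm7 and Wars were lower in the E16.5 BP cells than in both neighbours, and in each run of cells. Mcm7 (chromosome 5, 138164583 to 138172422), a subunit of the helicase that opens DNA for replication, averaged 43.8 TPM at E16.5, against 181 TPM at E14.5 and 303 TPM at E18.5. It was at 10 TPM or more in 20 of 79 cells at E16.5, 26 of 45 at E14.5 and 23 of 61 at E18.5. In cells 1 to 28 and 29 to 89 of E16.5 its means were 38.7 and 46.5 TPM, those of Wars 6.28 and 35.8 TPM, and those of Robo1 6.86 and 6.23 TPM. Without the highest cell of each library the means of Mcm7 were 34.9, 150.3 and 266 TPM. In cells with a Y-linked transcript only, Mcm7 averaged 32 TPM at E16.5 and 213 TPM at E14.5, and in cells with Xist only 50.6 TPM at E16.5 and 352 TPM at E18.5. Wars (chromosome 12, 108860030 to 108894174), the tryptophanyl-tRNA synthetase gene, was at 10 TPM or more in 6 of 79 cells at E16.5, 17 of 45 at E14.5 and 17 of 61 at E18.5. Robo1 (chromosome 16, 72308306 to 73046095), a receptor of the Slit guidance cues, averaged 6.44 TPM at E16.5, 43.5 TPM at E14.5 and 37.3 TPM at E18.5. Its relative Robo2 differed, with 73.9, 41.1 and 147 TPM in the same libraries. By library means, of 15 G1/S genes tested against E14.5, only Mcm7 was lower past 4 times and 0 were higher, with a median difference of −0.07 log2 units. Against E18.5, Mcm7 and Ccne1, a cyclin of the G1/S step, were lower past 4 times. There 11 of 15 differences were negative, with a median of −0.33. Averaged within cells as log2(TPM + 1), the list of 19 had medians of 1.35 at E16.5, 1.78 at E14.5 and 1.64 at E18.5. E16.5 cells also held fewer genes by the median, and the part of detection in these levels and in Mcm7 was not tested.

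Immediate early genes are those that any stimulus or the handling of tissue can switch on within minutes. Their differences from E14.5 were positive for 6 of the 7 tested, and from E18.5 for all 7. Those of the list of 12 with a mean under 10 TPM in both libraries were not tested. The exception at E14.5 was Fosb, at 12.3 TPM at E16.5, 17 TPM at E14.5 and 9.3 TPM at E18.5. Against E18.5, Fosb and Ier2 reached a mean of 10 TPM only at E16.5, so the filter fixed their positive sign. Egr1, a zinc finger factor induced by activity and stress, had a median of 209 TPM at E16.5 (range 0 to 6902), and medians of 0 TPM at E14.5 and 0 TPM at E18.5. It reached 10 TPM in 50 of 79 cells at E16.5, 16 of 45 at E14.5, 19 of 61 at E18.5 and 8 of 63 E16.5 NBN cells. Most E16.5 BP cells thus held Egr1 and most cells of the other libraries did not. Fos (chromosome 12, 85473890 to 85477273), a subunit of the AP-1 factor, averaged 485 TPM at E16.5, 97.6 TPM at E14.5 and 302 TPM at E18.5. Its partner gene Jun averaged 74.7, 28.3 and 65 TPM in those libraries, Ier2 53.2, 23.1 and 9.24 TPM, and Btg2 298, 99.1 and 84.4 TPM. The means of these 5 were highest at E16.5 of the 3 stages. In cells 1 to 28 and 29 to 89 they were 1022 and 938 TPM for Egr1, 630.4 and 409.5 TPM for Fos, 249 and 323 TPM for Btg2, 115.2 and 53.6 TPM for Jun and 106 and 25.7 TPM for Ier2. Jun in cells 29 to 89 thus lay below its E18.5 mean. Ier2 averaged 33.8 TPM without its highest cell, and in cells with a Y-linked transcript only it averaged 27.1 TPM at E16.5 and 28 TPM at E14.5, so its excess over E14.5 was not seen there.

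More cells held several of these genes at E16.5 than at E14.5, at E18.5 or in NBN. How many would hold several if the genes were independent was not computed. At 10 TPM or more, 3 or more of the 12 immediate early genes were held by 53 of 79 cells at E16.5 (67.1%), 15 of 45 at E14.5 (33.3%), 22 of 61 at E18.5 (36.1%) and 18 of 63 E16.5 NBN cells (28.6%), and 5 or more by 25, 4, 6 and 7 cells. Cells 1 to 28 of E16.5 gave 24 of 27 with 3 or more and 17 with 5 or more, and cells 29 to 89 gave 29 of 52 and 8, so the runs differed while both shares lay above those of the other libraries for 3 or more. Over the E16.5 cells Egr1 correlated with Fos at 0.51 and with Jun at 0.38, but with Btg2 at 0.17. Of 7 immediate early genes tested, 2 were higher past 4 times than at E14.5 (Egr1 and Fos) and 1 than at E18.5 (Ier2), beside 6.21% and 6.2% of all genes. Ier2 entered the comparison with E18.5 only through its E16.5 mean. Egr1 had means of 839 TPM in the 48 cells with Eomes and 1165 TPM in the 31 without. Its medians were further apart, at 40.0 and 990 TPM, and 27 and 23 of these cells held it at 10 TPM or more. The median of Fos was also lower with Eomes, at 58.5 against 319 TPM, while those of Btg2 and Jun were higher. Over the whole list the level correlated with Eomes at −0.03. From the highest Eomes range to the lowest, 20 of 32, 12 of 16 and 21 of 31 cells held 3 or more of the immediate early genes. Cells with more genes detected held more of them, with a correlation of 0.61 between the level of the list and genes per cell. E16.5 had the fewest genes per cell of the 3 libraries by the median. Within E16.5 the median was 5048 in cells 1 to 28 and 4207.5 in cells 29 to 89. The part of detection in these levels was not tested. In cells with Xist only, Egr1 averaged 1227 TPM at E16.5 and 397 TPM at E18.5, and in cells with a Y-linked transcript only 846 TPM at E16.5 and 116 TPM at E14.5. Fos averaged 696 and 299.6 TPM in the first pair of groups and 301 and 96.9 TPM in the second, Btg2 333 and 80.4 and then 206 and 90.4 TPM. Whether the dissociation and sorting of the tissue have a part in these levels was not tested.

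**Figure D5:**
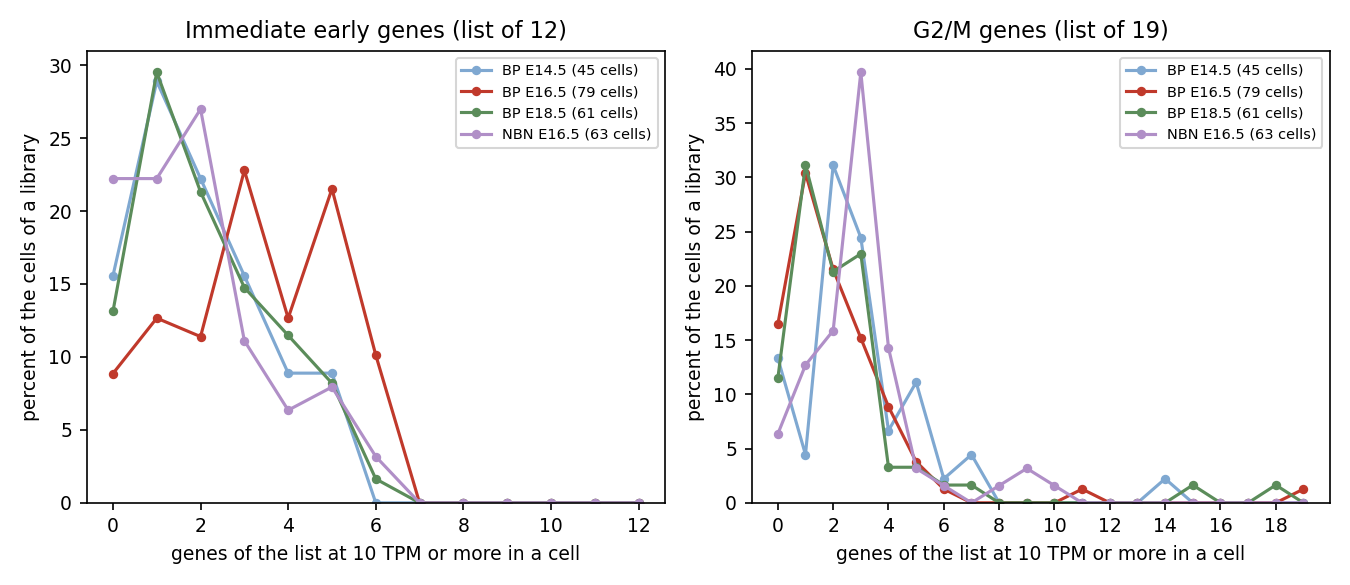
Share of the cells of each library (vertical axis, percent) by how many genes of a list reach 10 TPM or more in the cell (horizontal axis), for 12 immediate early genes (left) and 19 G2/M genes (right), in BP cells at E14.5, E16.5 and E18.5 and in E16.5 NBN. The E16.5 BP cells lie to the right of the others for immediate early genes, with 53 of 79 cells at 3 or more, and show no such shift for G2/M genes, where 1 cell holds all 19.

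The promoters of a pair of these genes are shown because Fos and Btg2 were each higher at E16.5 than in both neighbours and yet followed each other only weakly from cell to cell. They are the 250 bases before the gene start in RefSeq (GRCm38.p6), 5′ to 3′ on the gene's strand, at chr12:85473640-85473889 on the plus strand for Fos and at chr1:134079156-134079405 on the minus strand for Btg2. Capitals mark TGACG and its reverse complement CGTCA, the core of the cyclic AMP response element, which CREB factors bind.
Fos: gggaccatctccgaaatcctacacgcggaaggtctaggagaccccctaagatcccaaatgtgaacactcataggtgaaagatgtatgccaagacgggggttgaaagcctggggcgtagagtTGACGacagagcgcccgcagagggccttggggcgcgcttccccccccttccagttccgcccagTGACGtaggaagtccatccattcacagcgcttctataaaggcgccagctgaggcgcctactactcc
Btg2: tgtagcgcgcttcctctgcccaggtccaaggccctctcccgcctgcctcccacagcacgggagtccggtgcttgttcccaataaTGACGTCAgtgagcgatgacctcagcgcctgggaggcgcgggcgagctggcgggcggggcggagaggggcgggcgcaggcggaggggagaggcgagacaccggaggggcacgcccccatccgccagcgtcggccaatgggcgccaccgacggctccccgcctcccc
Fos held TGACG at 2 places, and Btg2 held it once together with CGTCA in an overlapping palindrome. The motif was present on either strand in 5836 of 32851 such windows (17.8%). The window of Jun held none and that of Dusp1, a phosphatase gene of the same list, held 3 matches. A match is a description of letters and says nothing of binding in these cells. Over the 79 cells Fos correlated with Btg2 at 0.14.

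Some E16.5 BP cells carried markers of other cell types. With 3 or more markers of a list at 10 TPM, 5 of 79 cells had a Cajal-Retzius profile, 3 an interneuron profile and 1 a red cell profile, 9 in all. Of the 5 Cajal-Retzius profiles 4 were in cells 1 to 28. In all, 10 of 72 BP cells at E12.5 had such a profile (8 of them Cajal-Retzius), 0 of 45 at E14.5, 1 of 61 at E18.5 and 8 of 63 E16.5 NBN cells. No cell reached 3 markers of oligodendrocytes, microglia, endothelium, mural cells, meninges or choroid plexus. Reln, the secreted signal of Cajal-Retzius cells, averaged 51.7 TPM at E16.5, against 4.2 TPM at E14.5 and 6.34 TPM at E18.5, and 5.56 TPM at E16.5 without those 9 cells. Trp73, a p53 relative that marks the same cells, reached 10 TPM in 9 of 79 cells, 0 of 45 at E14.5 and 1 of 61 at E18.5. Of the 5 Cajal-Retzius profiles, 4 had Eomes at 10 TPM or more and 3 Neurod6, while none of the 3 interneuron profiles had Eomes. The defining interneuron genes Gad1 and Dlx1 were at 10 TPM in 0 of 79 cells, while Dlx6 reached it in 15 and Gad2 in 10. Without the 9 cells, mean Eomes was 275.2 TPM, Zbtb20 331 TPM, Tcf7l2 81.4 TPM and Egr1 1037 TPM, so the levels of these genes did not rest on them.

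A test was possible only against the course of all libraries. In a linear model over the 17 libraries with a separate age slope for each population, the E16.5 BP library's departure from the BP age line was estimated for 14099 genes. By limma with Benjamini-Hochberg adjustment 0 genes were called (0%), and 303 (2.15%) had an unadjusted p under 0.05. Mcm7 had the smallest p, with a departure of −2.54 ± 0.48 (SE) log2 units (limma adjusted p = 0.787). Fos departed by 1.73 ± 0.72, Egr1 by 2.47 ± 1.09, Tcf7l2 by 2.19 ± 1.12, Wars by −1.96 ± 0.97 and Robo1 by −2.21 ± 1.26, each with a limma adjusted p of 1. Zbtb20 departed by 0.89 ± 1.18 (limma adjusted p = 1). The lone E16.5 library was assumed to vary like the others. With other settings 7, 26 or 50 genes were called (a pseudocount of 10, all cells, or a lower filter), and with cells 1 to 28 or 29 to 89 of E16.5 alone 0.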

How the data were processed

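The deposited tables give TPM per gene and cell, made by the authors. The tool kallisto 0.43.0 and the builds mm10 and GRCm38.p2 are listed in the submitters' processing notes. In 7 near-empty deposited columns of the series all values are whole numbers, and these were treated as a score on the TPM scale. All 17 tables list 23078 gene models, of which 22361 matched GENCODE M21 IDs, whose GRCm38 coordinates are given. Cells with under 1000 genes at 1 TPM were left out. No doublet caller was run. A list gene counted in a cell at 10 TPM. Shares have exact Clopper-Pearson 95% intervals, which cover counting error only.

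Libraries were compared as log2(mean TPM + 1). The departure from the age line was tested with limma 3.58.1 in R 4.3.3 (two-sided, eBayes with a trend, genes with a mean of 1 TPM in at least 4 libraries, Benjamini-Hochberg threshold 0.05), with P0 set at 18.5 plus its labelled 1 day; the fit was tested on simulated data. Python 3.11.15, NumPy 2.4.6, pandas 2.3.3, SciPy 1.17.1 and Matplotlib 3.10.9 did the rest. Named genes are list members and, per comparison and direction, up to 10 genes furthest apart that were at 1 TPM in 25% of cells of the higher library, with no cell over 30% of its sum and the same sign by the mean of log2, and the 10 most correlated with Eomes, Unc5d and Neurod6. Members and lists were chosen with earlier results of these data known. Alternatives changed the pseudocount, averaging, filters, cells, scaling, age term and libraries, and, added after the data were seen, matched cells by Xist and Y-linked transcripts and the E16.5 BP cells 1 to 28 or 29 to 89 alone.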

Additional observations from a re-analysis of the deposited data

How the results depend on the processing

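The count of genes departing from the age line by limma was 0, and also 0 with per-cell log averaging, quantile scaling, a common slope, without the cells of other types, with either run of E16.5 cells alone and without each of the other BP libraries in turn. It was 7 with a pseudocount of 10, 26 with all cells and 50 among genes with a mean of 1 TPM in 1 library. Genes 4 times apart from E14.5 numbered 1079, and 133 with a pseudocount of 10, 272 averaged per cell, 1654 from a mean of 1 TPM and 1995 in cells with a Y-linked transcript only (743 higher, 1252 lower, 663 shared with the 1079). Against E18.5 there were 1141, and 174, 18, 1708 and, in cells with Xist only, 1994 (805 higher, 1189 lower, 682 shared). Against both there were 385, and 22, 4 and 581. With all cells, without other cell types or without the 7 cells holding both transcripts the counts for single neighbours lay between 1130 and 1223. The matching by transcripts was chosen after seeing the data, and the cause of these shifts was not tested.

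Cells with a G1/S, a G2/M or either profile numbered 18, 6 and 22, and 48, 51 and 62 at 1 TPM, 54, 25 and 57 with 3 genes, and 4, 2 and 4 with 8 genes. With only E16.5 cells 1 to 28, added after seeing the data, 1741, 1896 and 976 genes were past the fold against E14.5, E18.5 and both, and with only cells 29 to 89 1421, 1470 and 616. Cells 1 to 28 turned round Pou3f2 against E14.5 (−0.127) and Clic6 (−0.287), Hba-a2 (−0.0208) and Hba-a1 (−0.0165) against E18.5. In matched cells a few differences turned round: Ndrg2 (−0.40) and Kif23 (−1.55) against E14.5, and Mef2c (−0.38), Clic6 (−0.36) and Ddx3y (−0.0545) against E18.5, in log2 units. No paired analysis was possible because the replicate numbers name cells and each stage is 1 library. Depth per cell is unknown.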
